A study of Mus musculus with 46 samples.

Results

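Messenger RNA of 211 genes of the solute carrier families, the proteins that move transmitters, sugars, amino acids, ions and metabolites across membranes, was followed in the mouse dorsal raphe nucleus, the midbrain nucleus that holds most serotonin neurons projecting to the forebrain. The genes were chosen by symbol and abundance: autosomal genes whose symbol starts with Slc or Slco and a family number, without the serotonin transporter gene Slc6a4, with a mean count (both alleles summed) of 50 or more at any age. They were 211 of the 15499 genes in the tables. The pattern matches 305 symbols, of which 10 are X-linked and 83 lie under the count minimum. Nearest under the minimum were Slc23a4, Slc6a20a and Slc24a5, with mean counts of 48.1, 43.1 and 39.8 at their highest age, and nearest over it were Slc13a5, Slc33a1 and Slc37a1, with 56.7, 58.1 and 59.2. The minimum was reached at all 3 ages by 190 of the members. For 4 members the symbol follows the pattern but the product is no transporter (Slc9a3r1, Slc9a3r2, Slc4a1ap and Slc2a4rg-ps).

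The 46 libraries came from female F1 hybrids between C57 and CAST mice, bred in both directions of the cross, which the labels call F1i and F1r. At P5 (postnatal day 5) and at P15 (postnatal day 15) there were 7 F1i and 7 F1r libraries each, and 9 F1i and 9 F1r libraries were from adults. The labels give no treatment and no induced mutation, they do not state the age of the adults, and they leave the mother's strain of F1i unnamed. For each library the tables hold a C57 and a CAST count per gene, so the same libraries allow comparisons between ages, between alleles and between crosses. The sum of both alleles is given as CPM, counts scaled to 1 common library total after TMM, which corrects for differences in composition. CPM are not divided by transcript length, so levels are compared between libraries and not between genes.

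Solute carriers use either the gradient of the solute itself or a stored ion gradient, most often of sodium or protons. In brain tissue, carriers of the Slc1 and Slc6 families clear glutamate, GABA, glycine and monoamines from the extracellular space, while the Slc17, Slc18 and Slc32 families load transmitters into vesicles. Cation chloride cotransporters set the neuronal chloride gradient, and with it the sign of GABA responses, during development. Carriers in endothelial cells and astrocytes bring glucose, amino acids and thyroid hormone across the blood brain barrier, and the Slc25 family serves the inner mitochondrial membrane.

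Libraries held 5100560 to 10319139 allele-assigned counts at P5, 3692778 to 8032987 at P15 and 4912934 to 13085952 in adults, and the members took a median of 2.30%, 2.4% and 2.64% of them. Libraries differed in how counts depended on the GC content of the transcript, and this moved with age. With genes ranked by GC content into 5 equal classes, the level of the richest relative to the poorest class, as a log2 deviation from the mean of all libraries, was 0.32 to 0.54 at P5, -0.81 to -0.03 at P15 and -0.82 to 0.24 in adults. Of the adults, F1i library 1_1 was the lowest and the other 17 lay between -0.36 and 0.24. The counts of each age were deposited as a separate set. A difference between the sets in how libraries were made or counted therefore cannot be told apart from a change with age. Most age changes are also given after each library's trend with GC content was removed, termed GC-adjusted. This alternative was chosen after the data had been seen. 

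The leading axis of variation within an age held 64.2% of the variance at P15 and 57.4% in adults, against 14.6% at P5. F1i libraries 1 and 2 and F1r library 1 of P15 lay at its upper end, with loadings of 0.42, 0.455 and 0.328. The other P15 libraries were spread from -0.329 to 0.186, so those named are 1 end of a wide spread. F1i library 1_1 of the adults had 0.648, and the other adults -0.242 to 0.326. The libraries named here are termed the 4 libraries that stood apart. The marker genes of serotonin neurons (Tph2, Fev, Ddc and Slc6a4) summed to 351 to 538 CPM at P5, 870 to 1465 CPM at P15 and 1008 to 1441 CPM in adults. Markers of the labelled nucleus were thus present in each library, and 3 of 4 rose at P15 and 1 fell (GC-adjusted 4 and 0). Markers of other cells moved with age as well. Those of astrocytes summed to 2099 to 2373, 4228 to 4814 and 4001 to 4816 CPM (5 of 6 rose at P15 and 1 fell). Those of myelin summed to 1254 to 2335, 15720 to 28420 and 6326 to 10520 CPM (6 of 6 rose at P15 and 6 of 6 fell in adults). Endothelial markers summed to 145 to 161, 84.8 to 151 and 62.1 to 80.9 CPM, but the 5 genes did not move together. At P15 2 rose and 3 fell, with a median change of -0.58 (GC-adjusted 2 and 2, median 0.17). In adults over P15 1 rose and 3 fell (GC-adjusted 1 and 3). Markers of immature neurons summed to 209 to 264, 49.1 to 63.9 and 29.7 to 48.8 CPM (2 of 2 fell at each step). No gene of these lists was at 0 at any age. In whole tissue, fewer cells of a type and less RNA per cell cannot be told apart, and the part of these shifts in the changes of the members was not tested. The labels number the libraries of a group without saying that each is a separate animal, and adult libraries carry 2 numbers, so p-values measure the spread between these libraries.

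Members changed with age about as often as other genes. At P15, 101 members were higher and 75 lower than at P5 (adjusted p under 0.05, edgeR quasi-likelihood test). That is 83.4% of members beside 83.4% of all genes tested, of which 42.5% were higher and 40.9% lower. In adults, 80 members were higher and 83 lower than at P15, 77.3% beside 74.7% of all genes (37.0% higher, 37.7% lower). In adults over P5, 86 were higher and 87 lower, 82.0% beside 82.1% (40.6% higher, 41.5% lower). The unadjusted counts by role group below stand beside these shares of all genes, and no group was tested against them. The median change of the members was 0.08, -0.02 and -0.01 on the log2 scale in these comparisons, against 0.02, -0.01 and -0.01 for all genes. The GC trend shows in the members too. Those in the GC-poorest class had a median change of 0.34 at P15 against P5 and those in the richest one of -0.29. For adults against P15 the medians were -0.29 and 0.20. Over all genes of these classes they were 0.36 and -0.53 at P15 against P5, and -0.19 and 0.23 for adults against P15. GC-adjusted, 98 members were higher and 72 lower at P15 than at P5. The medians of the poorest and richest class were then 0.03 and 0.25 for members, beside 0.03 and 0.02 for all genes. The share of all genes called by the adjusted fit is not given here, so its counts do not set members against other genes. Both fits called 78 members higher and 59 lower at P15, while 10 were called in opposite directions and 29 by the unadjusted fit alone. For adults against P15 the adjusted fit called 74 higher and 92 lower, and the fits shared 65 higher and 73 lower calls with 1 in opposite directions. The comparisons of P15 with P5 and of adults with P15 use the same P15 libraries.

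**Figure D1:**
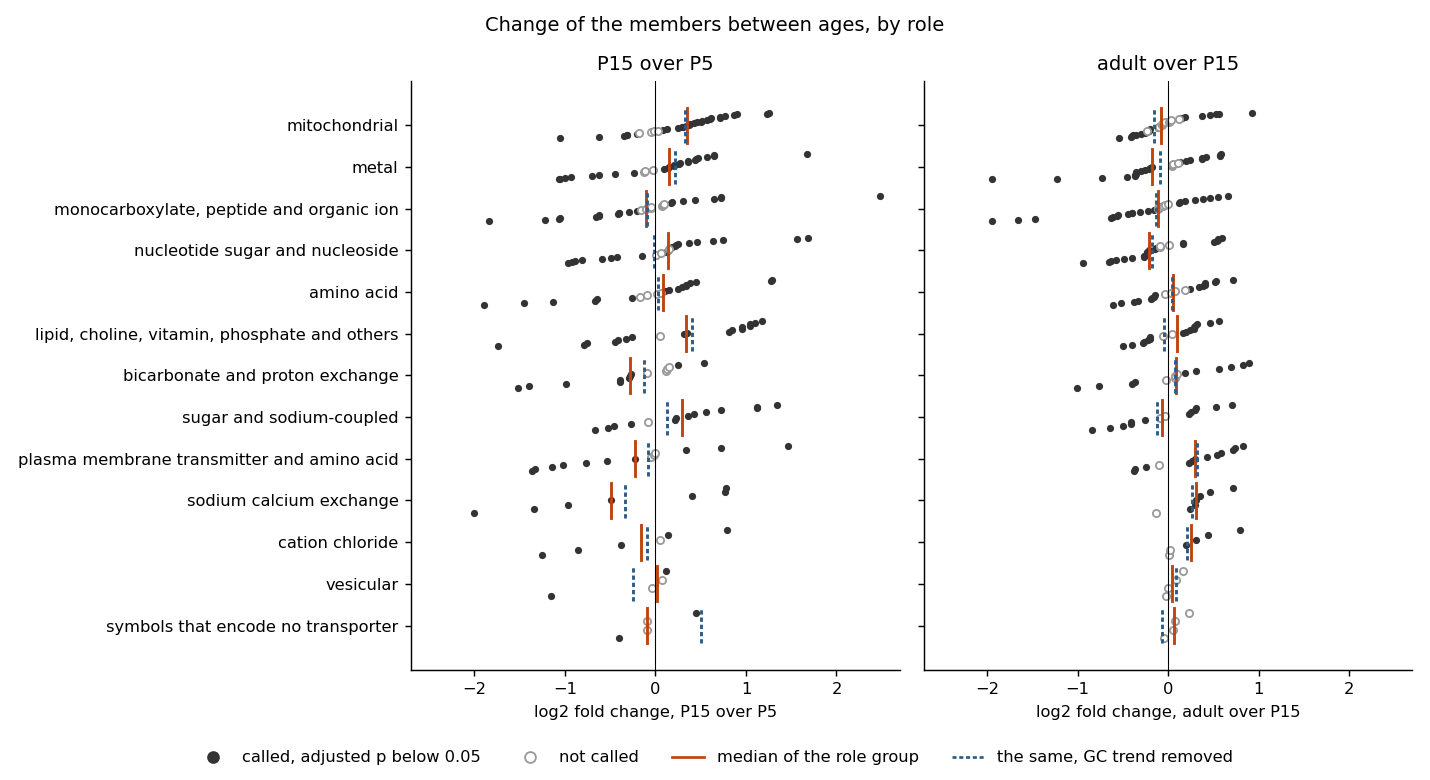
The log2 fold change (x axis) of each of the 211 members for P15 over P5 (left) and adult over P15 (right), with the members grouped by role on the y axis. Filled points were called at an adjusted p below 0.05 and open points were not; the solid line is the median of the group and the dotted line the same median with the GC trend of each library removed. Median changes of the transmitter and sodium calcium exchange groups were below 0 at P15 and above 0 in adults, and the mitochondrial median was 0.35 at P15 (GC-adjusted 0.33).

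Among the 13 plasma membrane carriers of transmitters and related amino acids, the astrocytic glutamate carriers rose between P5 and P15, while the astrocytic GABA carrier Slc6a11 fell and was higher again in adults. In all 3 rose and 7 fell at P15, with a median change of -0.22 (GC-adjusted 3 and 6, median -0.08), and 9 rose and 3 fell in adults against P15, median 0.30 (GC-adjusted 8 and 4, median 0.32). Slc1a2 encodes GLT1, the main glutamate carrier of astrocytes. It had 1043, 1156 and 1268 CPM at P5, 2208, 3135 and 4399 CPM at P15 and 3719, 4364 and 4994 CPM in adults (lowest, median and highest library, as in later sentences). No P15 library overlapped the P5 libraries, and adult libraries overlapped the upper part of P15. The log2 change was 1.47 ± 0.07, adjusted p = 7.34e-24 at P15 over P5 and 0.43 ± 0.07, adjusted p = 3.06e-07 for adults over P15 (GC-adjusted 1.28 and 0.51). Slc1a3 encodes GLAST, the other astrocytic glutamate carrier. It had 406, 439.9 and 491 CPM at P5, 625, 745 and 812 CPM at P15 and 483, 559 and 663 CPM in adults. It was higher in each P15 library than in any P5 library (0.73 ± 0.04, adjusted p = 7.56e-22) and lower in adults than at P15 (-0.38 ± 0.04, adjusted p = 1.33e-12), with GC-adjusted changes of 0.55 and -0.30. The astrocyte markers in the same libraries had a median change of 0.68 at P15 and 0.13 in adults (GC-adjusted 0.72 and 0.05).

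Slc6a11 encodes a GABA carrier of astrocytes. It had 1462, 1566 and 1665 CPM at P5, 749.6, 1064 and 1615 CPM at P15 and 1416, 1833 and 1986 CPM in adults, where the highest P15 libraries reached the P5 range. It fell by 0.53 on the log2 scale at P15 and rose by 0.71 in adults (adjusted p = 6.65e-08 and 1.7e-11), and the GC-adjusted changes were -0.33 and 0.59. Its transcript is GC-rich (53.9%). Slc1a4, a carrier of neutral amino acids including serine (ASCT1), dropped to 268, 302 and 334 CPM at P15, against 637, 652 and 681 CPM at P5, a change of -1.14 ± 0.03, adjusted p = 1.75e-35, and adults lay between the other ages at 335, 363 and 379 CPM without overlap with either. Slc1a6, encoding the neuronal glutamate carrier EAAT4, fell at P15 as well (-1.36 ± 0.08, adjusted p = 1.53e-21; GC-adjusted -0.97), and so did the taurine carrier gene Slc6a6 (-1.34 ± 0.06, adjusted p = 1.74e-25; GC-adjusted -1.27).

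The glycine carriers and Slc6a17 rose in adults over P15. Slc6a9 encodes GLYT1. It had 38.5, 43.9 and 49.96 CPM at P5, 32.7, 43.1 and 61.4 CPM at P15 and 61.3, 74 and 82.9 CPM in adults. Its P5 and P15 libraries overlapped, and its change was -0.01 ± 0.07, adjusted p = 0.937 at P15 but 0.73 ± 0.07, adjusted p = 1.87e-13 in adults over P15. The GC-adjusted change at P15 was 0.44, adjusted p = 6.68e-10, so for this transcript (57% GC) the call at P15 depends on the GC trend, and 1429 of its 3679 exon bases are shared with Ccdc24 on the other strand. Slc6a17 encodes a vesicle-associated carrier of neutral amino acids in neurons. It had 356, 393 and 435 CPM at P5, 225, 333 and 526 CPM at P15 and 469, 593 and 701 CPM in adults. It was higher in adults by 0.83 ± 0.10, adjusted p = 7.36e-11 (GC-adjusted 0.66), while at P15 its change of -0.22 was 0.12 after GC adjustment and no longer called. Slc6a5, encoding the neuronal glycine carrier GLYT2, and the dopamine transporter gene Slc6a3 were not called at P15 (changes of -0.02 and -0.05). In adults over P15 Slc6a5 changed by 0.30 ± 0.10, adjusted p = 0.00511 (GC-adjusted 0.32), and Slc6a3, at 11, 15.6 and 20.2 CPM in adults against 8.78, 13.3 and 18.9 CPM at P15, by 0.23 ± 0.09, adjusted p = 0.0246, a call lost after GC adjustment (0.17, adjusted p = 0.0904) and with library totals in place of TMM (0.17, adjusted p = 0.0985).

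Of the 4 vesicular members, 1 rose and 1 fell at P15 (GC-adjusted 0 and 3), and 0 rose and 0 fell in adults over P15 (GC-adjusted 2 and 0). Slc32a1 encodes VGAT, the GABA and glycine vesicle carrier. It had 76.4, 85 and 129.8 CPM at P5, 19.7, 38.7 and 80.6 CPM at P15 and 11, 49.1 and 81 CPM in adults, with overlapping groups and a wide spread within each age. It fell by 1.16 on the log2 scale at P15 (adjusted p = 1.9e-07), and by 0.35 after GC adjustment (adjusted p = 0.00839). Its transcript is GC-rich (61.9%), and an antisense transcript shares 697 of its 2797 exon bases. In adults over P15 its change was 0.16 ± 0.18, adjusted p = 0.413, and 0.48 (adjusted p = 0.00541) without the 4 libraries that stood apart. Slc17a6 encodes the glutamate vesicle carrier VGLUT2. It had 179.6, 258 and 291 CPM at P5, 165, 265 and 367 CPM at P15 and 217, 263 and 336 CPM in adults, with changes of 0.07 and 0.00 that were not called. Slc17a8 encodes VGLUT3, which is found in serotonin neurons of this nucleus. It had 136, 163 and 202 CPM at P5, 120.2, 163 and 208 CPM at P15 and 128, 168 and 216 CPM in adults, likewise without a call. Both are GC-poor (42.9% and 44.0%), and GC-adjusted they were called lower at P15 (-0.22, adjusted p = 0.00667; -0.28, adjusted p = 0.00038) and higher in adults (0.16, adjusted p = 0.035; 0.22, adjusted p = 0.00302). Without the 4 libraries Slc17a6 instead changed by 0.20 at P15 (adjusted p = 0.00616) and by -0.14 in adults (adjusted p = 0.0403), so its direction depends on the setting. Slc18a2, the vesicular monoamine carrier gene, was not analysed here.

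Of the 6 cation chloride cotransporter genes, 2 rose and 3 fell at P15 (GC-adjusted 2 and 3), and 4 rose and 0 fell in adults over P15 (GC-adjusted 3 and 1). Slc12a2 encodes NKCC1, which imports chloride, and Slc12a5 encodes KCC2, the neuron-specific exporter. Slc12a2 had 49.2, 56.1 and 62 CPM at P5, 85, 93.4 and 119 CPM at P15 and 91.1, 121 and 162 CPM in adults, each P15 library lying above each P5 library. Its change was 0.79 ± 0.06, adjusted p = 4.68e-17 at P15 and 0.31 ± 0.05, adjusted p = 1.33e-06 in adults (GC-adjusted 0.56 and 0.43). Slc12a5 had 691, 748 and 781 CPM at P5, 201, 301 and 479.5 CPM at P15 and 366, 557 and 683 CPM in adults, each P15 library lying below each P5 library and the adults overlapping P15. It changed by -1.25 ± 0.10, adjusted p = 1.07e-15 at P15 and by 0.79 ± 0.10, adjusted p = 5.54e-10 in adults (GC-adjusted -0.71 and 0.58). Over P5, the adult level of Slc12a5 was lower by 0.46 (adjusted p = 2.09e-05), and by 0.14 after GC adjustment (adjusted p = 0.025). Its transcript has 58.3% GC. Slc12a7, encoding KCC4, also fell at P15 and rose in adults over P15, with smaller changes (-0.38 and 0.44, and GC-adjusted -0.21 and 0.33).

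All 7 sodium calcium exchanger genes were called at P15, 3 higher and 4 lower by both fits. Of all genes tested, the unadjusted fit called 83.4% at this step, 42.5% higher and 40.9% lower. Of the 7, 6 were higher and 0 lower in adults over P15 (GC-adjusted 5 and 0). The 3 plasma membrane exchangers of the Slc8 family fell at P15. Slc8a2 encodes NCX2. It had 125, 132 and 140.5 CPM at P5, 19.5, 32.5 and 51.1 CPM at P15 and 33.8, 54.9 and 67.2 CPM in adults. Every P15 and adult library lay below every P5 library, and P15 and adults overlapped. The change was -2.01 ± 0.10, adjusted p = 1.24e-23 at P15 and 0.71 ± 0.10, adjusted p = 8.92e-09 in adults over P15 (GC-adjusted -1.44 and 0.49), the largest fall at P15 among the members named for age. Slc8a1, encoding NCX1, changed by -1.34 ± 0.09, adjusted p = 3.9e-19 at P15 (GC-adjusted -1.71) and Slc8a3, encoding NCX3, by -0.49 ± 0.05, adjusted p = 9.41e-13 (GC-adjusted -0.34). Those that rose were Slc24a2 (0.78 ± 0.06, adjusted p = 1.42e-17), Slc24a4 (0.40 ± 0.09, adjusted p = 4.85e-05), both potassium-dependent exchangers, and Slc8b1, encoding the mitochondrial exchanger NCLX (0.77 ± 0.13, adjusted p = 4.52e-07; GC-adjusted 1.2).

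**Figure D2:**
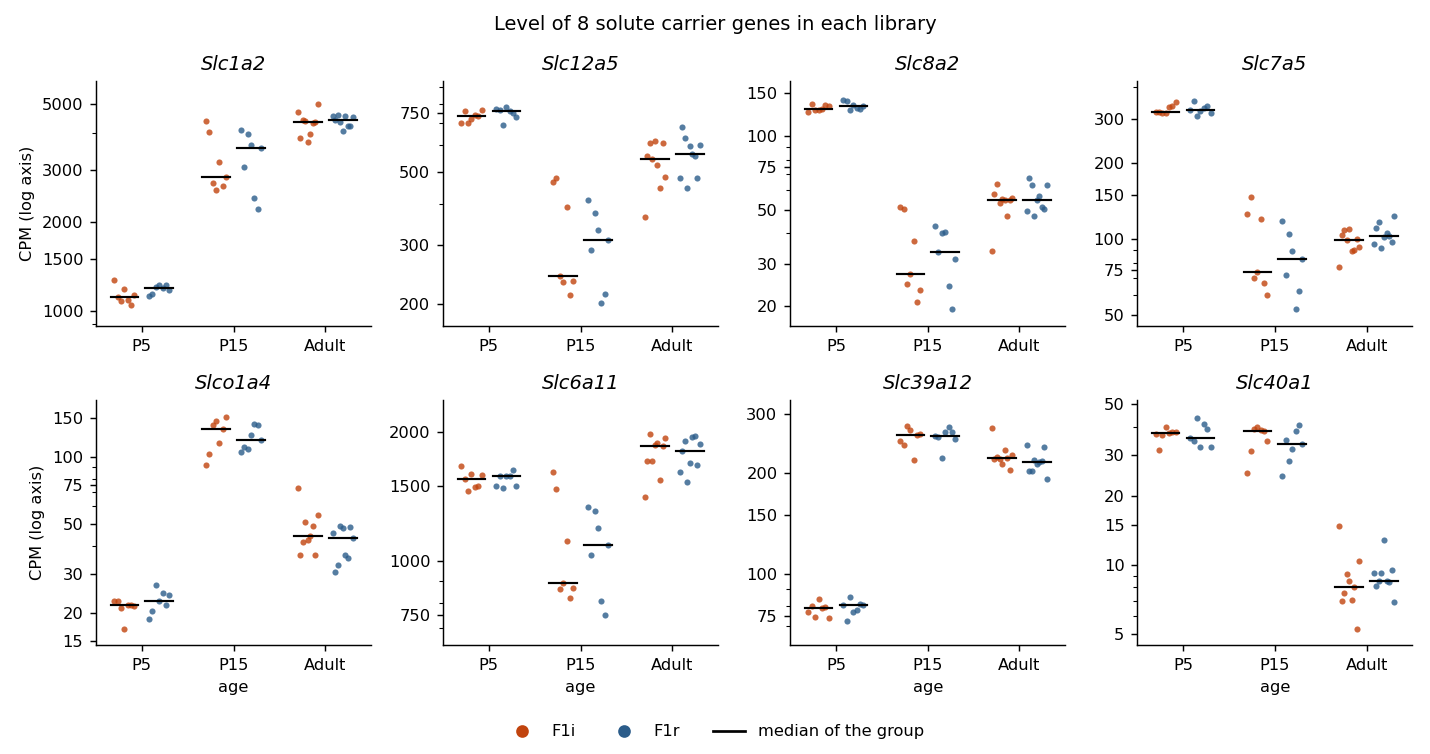
CPM on a log axis (y) at P5, P15 and in adults (x) for 8 members, with 1 point for each library, F1i left and F1r right within an age, and the median of each group as a bar. Slc1a2, Slco1a4 and Slc39a12 were higher at P15 than at P5, Slc12a5, Slc8a2 and Slc7a5 were lower without overlap, and Slc40a1 was lower in adults than at P15 without overlap.

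Slco1a4, an organic anion and thyroid hormone carrier of the blood brain barrier, had the largest rise at P15 and Slc8a2 the largest fall, and their promoters are shown because these changes lie at both ends of the range. The RefSeq windows (GRCm38.p6, 250 bases before to 50 after the annotated start, 5′ to 3′ along the gene) are chr6:141856171-141856470 on the minus strand and chr7:16129576-16129875 on the plus strand, with matches on either strand in capitals: the TATA box as TATAAA, the motif CCAAT, the GC box as GGGCGG and the E-box as CACGTG.
Slco1a4: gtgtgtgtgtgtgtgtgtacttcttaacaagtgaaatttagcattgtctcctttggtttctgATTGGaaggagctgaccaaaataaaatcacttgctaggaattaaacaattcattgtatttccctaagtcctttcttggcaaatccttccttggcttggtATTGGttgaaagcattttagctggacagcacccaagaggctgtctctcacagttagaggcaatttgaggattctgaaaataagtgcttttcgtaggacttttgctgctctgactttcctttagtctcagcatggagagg
Slc8a2: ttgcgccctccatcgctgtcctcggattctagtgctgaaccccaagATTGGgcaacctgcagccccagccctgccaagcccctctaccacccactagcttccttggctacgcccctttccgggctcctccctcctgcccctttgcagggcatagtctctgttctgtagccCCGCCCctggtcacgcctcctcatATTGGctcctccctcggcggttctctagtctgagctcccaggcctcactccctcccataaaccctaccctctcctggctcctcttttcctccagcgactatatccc
The Slco1a4 window holds 1 CG pair, 40.7% GC and 2 matches to CCAAT (on the other strand, as ATTGG), and the Slc8a2 window 10 CG pairs, 61.3% GC, 2 matches to CCAAT and 1 to the GC box (on the other strand, as CCGCCC). Neither holds the TATA box or the E-box as searched. CCAAT occurs in 35.7% of the 171 member promoters found in the table, beside 37.4% of all 32851 promoters, and the GC box in 69.6% beside 35.7%. The E-box is in 13.5% of member promoters beside 7.15%, and the TATA box in 9.36% beside 13.6%. The sets are unlike: members were chosen by abundance and enter with 1 window for each symbol, while all promoters include every window listed. The shares therefore do not show a trait of solute carriers. Each motif was searched separately, and a match is a run of letters, not a site.

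Carriers of bicarbonate, protons and anions fell more often than they rose at P15: 2 of 14 rose and 8 fell, with a median of -0.28 (GC-adjusted 2 and 7, -0.13), and 6 rose and 4 fell in adults over P15 (GC-adjusted 7 and 5). Slc9a5 encodes the neuronal proton exchanger NHE5. It had 42.5, 45.2 and 50.6 CPM at P5, 11, 15.7 and 23.9 CPM at P15 and 20.8, 25.9 and 31.8 CPM in adults. Each P15 library lay below each P5 library (-1.52 ± 0.07, adjusted p = 1.01e-24), and the gene rose in adults (0.70 ± 0.07, adjusted p = 1.77e-12; GC-adjusted -1.18 and 0.52). Slc26a10 had 40.3, 45.4 and 51.8 CPM at P5, 12.5, 16.5 and 24.3 CPM at P15 and 27.6, 32.5 and 39 CPM in adults, with 3 separate ranges, and changed by -1.40 ± 0.08, adjusted p = 3.09e-22 and 0.90 ± 0.07, adjusted p = 2.37e-15 (GC-adjusted -1.002 and 0.71). However, 715 of its 3130 exon bases are shared with B4galnt1 on the other strand and the strand counted is not stated. Slc26a6, an anion exchanger gene, fell in adults, at 3.06, 4.18 and 5.47 CPM, against 6.62, 8.01 and 11 CPM at P15 (-1.01 ± 0.08, adjusted p = 1.67e-15; GC-adjusted -1.18). Slc4a2, encoding the chloride bicarbonate exchanger AE2, was higher in adults at 11.3, 19.6 and 24 CPM, against 7.04, 9.99 and 15.8 CPM at P15 (0.83 ± 0.10, adjusted p = 2.59e-10; GC-adjusted 0.59). At P15 over P5 Slc4a2 was called lower by the unadjusted fit (-0.27) and higher by the GC-adjusted one (0.28), and 694 of its 4651 exon bases are shared with Fastk. The sodium bicarbonate cotransporter genes moved apart in adults over P15 in the unadjusted fit. Slc4a4, found in astrocytes, rose by 0.57 ± 0.06, adjusted p = 9.61e-12 and Slc4a7 changed by -0.76 ± 0.07, adjusted p = 2.64e-13. Their transcripts have 45.9% and 41.6% GC, and their GC-adjusted sizes are not given. The GC-adjusted fit kept the 4 lower calls of this group, Slc4a7 among them, and 5 of its 6 higher calls.

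Among 20 amino acid carriers of the Slc3, Slc7, Slc36, Slc38 and Slc43 families, 10 rose and 6 fell at P15 (GC-adjusted 8 and 6) and 8 rose and 8 fell in adults over P15 (GC-adjusted 9 and 7). Slc7a5 encodes LAT1, the large neutral amino acid carrier of the blood brain barrier that brings in tryptophan, the precursor of serotonin. It had 307, 324 and 353 CPM at P5, 52.9, 78.5 and 147 CPM at P15 and 77.6, 101 and 123 CPM in adults. Each P15 and adult library lay below each P5 library. Its change was -1.90 ± 0.10, adjusted p = 2.78e-23 at P15 (GC-adjusted -1.53) and 0.18 ± 0.09, adjusted p = 0.0702 in adults over P15, or 0.39 (adjusted p = 7.91e-06) without the 4 libraries that stood apart and 0.00 GC-adjusted. Slc7a1, encoding the arginine and lysine carrier CAT1, fell likewise (-1.45 ± 0.09, adjusted p = 3.62e-21; GC-adjusted -1.38), to 73.4, 98.7 and 162 CPM at P15, against 264, 287 and 306 CPM at P5. Slc7a2, encoding the related carrier CAT2, had 55.3, 57 and 61.4 CPM at P5, 121, 140.2 and 162 CPM at P15 and 105, 124 and 156 CPM in adults and rose by 1.29 ± 0.04, adjusted p = 3.6e-30 without overlap (GC-adjusted 1.04). Slc38a9, the arginine sensor of the lysosomal membrane, rose by 1.27 ± 0.07, adjusted p = 5.89e-22 (GC-adjusted 1.06). Slc38a10 fell by 1.14 on the log2 scale at P15 and rose by 0.72 in adults (GC-adjusted -0.65 and 0.50). Slc7a11 encodes the cystine glutamate exchanger xCT of astrocytes. It had 47.5, 52.8 and 58.2 CPM at P5, 50.9, 67.4 and 83.6 CPM at P15 and 59.9, 69.6 and 93.1 CPM in adults. Its rise of 0.34 ± 0.06, adjusted p = 3.76e-07 at P15 was -0.02, adjusted p = 0.683 after GC adjustment, its transcript having 40.7% GC. In adults over P15 it was called by the GC-adjusted fit alone (0.27, adjusted p = 2.04e-08).

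Sugar and related sodium-coupled carriers rose more often than they fell at P15, 9 and 4 of 14 (GC-adjusted 8 and 3), and were evenly divided in adults over P15, 6 and 6 (GC-adjusted 4 and 7). Slc2a1 encodes GLUT1, the glucose carrier of endothelium and astrocytes. It had 35.8, 37.9 and 46.2 CPM at P5, 79.7, 97.7 and 112 CPM at P15 and 53.6, 75.2 and 99.8 CPM in adults. Each P15 library exceeded each P5 library (1.34 ± 0.06, adjusted p = 1.3e-24), and adults were lower than P15 (-0.41 ± 0.06, adjusted p = 1.37e-08), with GC-adjusted changes of 1.56 and -0.56. Slc2a3 encodes the neuronal glucose carrier GLUT3. It had 88.9, 96.5 and 102 CPM at P5, 123, 142 and 164 CPM at P15 and 89.3, 101 and 109 CPM in adults. Its P15 libraries lay above both other ages without overlap, with changes of 0.56 ± 0.04, adjusted p = 1.29e-19 and -0.50 ± 0.03, adjusted p = 1.39e-18 (GC-adjusted 0.46 and -0.46). Slc37a4, the glucose 6-phosphate carrier of the endoplasmic reticulum, was likewise highest at P15. It had 44, 47.5 and 50.6 CPM at P5, 63.3, 81.3 and 97 CPM at P15 and 37.1, 44.3 and 50.4 CPM in adults (changes of 0.72 and -0.84; GC-adjusted 1.06 and -1.03). Slc5a5, known as the iodide carrier of the thyroid, rose over both steps without overlap. It had 21.6, 25.8 and 30.3 CPM at P5, 46.9, 55.7 and 65.1 CPM at P15 and 69.2, 92.3 and 110.1 CPM in adults. Its changes were 1.12 ± 0.06, adjusted p = 2.23e-23 and 0.71 ± 0.05, adjusted p = 1.42e-17 (GC-adjusted 1.71 and 0.46). Slc5a3, the myo-inositol carrier gene, rose by 0.43 and 0.31 (GC-adjusted 0.10 and 0.49).

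Among 27 carriers of monocarboxylates, peptides and organic ions, 8 rose and 12 fell at P15 (GC-adjusted 11 and 13) and 8 rose and 13 fell in adults over P15 (GC-adjusted 6 and 14). The organic anion carriers of the blood brain barrier were lower in adults. Slco1a4 had 16.9, 21.7 and 26.7 CPM at P5, 92.2, 123 and 150.3 CPM at P15 and 30.5, 43.7 and 72.6 CPM in adults, 3 ranges without overlap. It changed by 2.48 ± 0.09, adjusted p = 1.36e-29 at P15 and -1.47 ± 0.08, adjusted p = 1.33e-22 in adults (GC-adjusted 2.10 and -1.28). Slco1c1, the thyroxine carrier of endothelium and astrocytes, had 99.4, 108 and 119 CPM at P5, 125, 181 and 192 CPM at P15 and 45.1, 53.1 and 68.3 CPM in adults, also without overlap. It changed by 0.65 ± 0.05, adjusted p = 6.01e-16 and -1.66 ± 0.05, adjusted p = 1.97e-32 (GC-adjusted 0.36 and -1.51). Slc22a8, encoding OAT3, had 16.8, 18.1 and 20.04 CPM at P5, 9.69, 20.7 and 24.6 CPM at P15 and 2.91, 4.91 and 7.70 CPM in adults. Its P5 and P15 libraries overlapped, and each adult library lay below them (-1.94 ± 0.11, adjusted p = 2.76e-21; GC-adjusted -1.97). In the same libraries 3 of 5 endothelial markers fell in adults over P15 and 1 rose, with a median change of -1.17. Slc16a1 encodes the lactate carrier MCT1 of endothelium and oligodendrocytes. It dropped to 47.6, 60.6 and 66.9 CPM in adults, against 74.9, 88.5 and 109 CPM at P15 (-0.56 ± 0.04, adjusted p = 1.64e-18; GC-adjusted -0.41). At P15 over P5 it was not called (-0.05), but GC-adjusted it was (-0.34, adjusted p = 7.27e-11). Slc15a3, a lysosomal peptide and histidine carrier gene, fell to 38, 47 and 72.6 CPM at P15, against 169.8, 192 and 208 CPM at P5 (-1.83 ± 0.09, adjusted p = 7.81e-25; GC-adjusted -1.33), though 94 of its 2345 exon bases are shared with Tmem132a on the other strand. The low-affinity monoamine carrier Slc22a3 (OCT3) changed by -0.20 ± 0.06, adjusted p = 0.00233 at P15 and 0.13 ± 0.06, adjusted p = 0.0309 in adults, and the adult call was lost GC-adjusted (adjusted p = 0.0626), without the 4 libraries (0.0507) and with library totals in place of TMM (0.213). The serotonin transporter gene Slc6a4, left out by the rule, rose in the same libraries by 0.67 ± 0.08 at P15 (GC-adjusted 0.785). Its change of 0.21 ± 0.07 in adults over P15, called without the GC adjustment, was not called with it (0.14, adjusted p = 0.053). Slc10a4, a vesicle protein of monoaminergic and cholinergic neurons, rose in adults over P15 (0.39 ± 0.07, adjusted p = 4.21e-06; GC-adjusted 0.24).

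Of 27 metal carriers 16 rose and 8 fell at P15 (GC-adjusted 16 and 9), and 9 rose and 14 fell in adults over P15 (GC-adjusted 9 and 13). Slc39a12, a zinc carrier found in astrocytes, had 72.1, 79.2 and 85.3 CPM at P5, 219, 259 and 276 CPM at P15 and 192, 219.7 and 272 CPM in adults. Each P15 library exceeded each P5 library (1.68 ± 0.04, adjusted p = 1.33e-36; GC-adjusted 1.40), and its change of -0.20 in adults, called without the GC adjustment, was not called with it (-0.05, adjusted p = 0.0853). Slc40a1 encodes ferroportin, the iron exporter. It had 31.6, 37.3 and 43.6 CPM at P5, 24.3, 34.8 and 40.6 CPM at P15 and 5.27, 8.48 and 14.8 CPM in adults. Each adult library lay below each younger one (-1.94 ± 0.09, adjusted p = 3.04e-25; GC-adjusted -1.78), and at P15 over P5 it was not called (-0.13) but was GC-adjusted (-0.45, adjusted p = 3.18e-08). Slc31a1 encodes the copper importer CTR1. It had 60.6, 68.8 and 72 CPM at P5, 78.5, 86.2 and 99.9 CPM at P15 and 29, 36.4 and 55 CPM in adults, with each P15 library above and each adult library below the P5 range. It changed by 0.35 ± 0.06, adjusted p = 1.21e-06 and -1.22 ± 0.06, adjusted p = 7.83e-24 (GC-adjusted 0.10 and -1.09).

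The 32 mitochondrial carriers of the Slc25 family rose more often than they fell at P15, 22 against 6, with a median of 0.35 (GC-adjusted 20 and 4, 0.33), and both fits called 16 higher and 3 lower. In adults over P15, 8 rose and 13 fell (GC-adjusted 8 and 18). Slc25a13, encoding the aspartate glutamate carrier citrin, had 5.35, 7.07 and 9.96 CPM at P5, 12, 19 and 22.7 CPM at P15 and 17.6, 20.04 and 23.8 CPM in adults, with no overlap of P15 and P5 (1.26 ± 0.08, adjusted p = 1.2e-19; GC-adjusted 1.14). Slc25a28, encoding mitoferrin 2, an iron importer, was higher in adults at 29.8, 39.3 and 44.4 CPM, against 15.4, 19.3 and 28 CPM at P15 without overlap (0.92 ± 0.06, adjusted p = 2.2e-18; GC-adjusted 0.80). Slc25a29, a carrier of basic amino acids, was not called at P15 (-0.18) but was called higher GC-adjusted (0.54, adjusted p = 3.01e-14), its transcript having 60.4% GC. It rose in adults over P15 by 0.53 ± 0.08, adjusted p = 2.06e-07 (GC-adjusted 0.27).

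Among 25 nucleotide sugar and nucleoside carriers, 14 rose and 8 fell at P15 (GC-adjusted 11 and 9), and 7 rose and 15 fell in adults over P15 (GC-adjusted 7 and 14). Slc29a3, a nucleoside carrier of lysosomes, had 22, 27.3 and 32 CPM at P5, 72.6, 81.3 and 102 CPM at P15 and 63, 67 and 77.6 CPM in adults, with no overlap of P15 and P5 (1.57 ± 0.05, adjusted p = 3.56e-31; GC-adjusted 1.62). Slc35g2 rose to 37, 54.3 and 64.1 CPM at P15, against 10.9, 16.1 and 20.9 CPM at P5 (1.68 ± 0.08, adjusted p = 3.7e-25; GC-adjusted 1.45). Slc29a4 encodes the low-affinity serotonin and dopamine carrier PMAT. It had 118, 129 and 147 CPM at P5, 42.3, 64.8 and 101 CPM at P15 and 57.2, 94.6 and 119.8 CPM in adults, with no overlap of P15 and P5. Its change was -0.97 ± 0.10, adjusted p = 1.69e-12 at P15 and 0.51 ± 0.10, adjusted p = 4.91e-06 in adults over P15, and GC-adjusted -0.28 and 0.26, its transcript having 60.1% GC. For adults over P5 its change of -0.46 was -0.02, adjusted p = 0.671 after GC adjustment. Slc35b2, the Golgi carrier of the sulphate donor PAPS, was lower in adults at 20.4, 27.6 and 35.3 CPM, against 46, 52.6 and 61.5 CPM at P15 (-0.94 ± 0.05, adjusted p = 9.53e-22; GC-adjusted -1.21).

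In the last group of transporters, 18 carriers of lipids, choline, vitamins, phosphate and others, 10 rose and 7 fell at P15 (GC-adjusted 11 and 5) and 9 rose and 7 fell in adults over P15 (GC-adjusted 6 and 7). Slc5a7 encodes the high-affinity choline carrier of cholinergic neurons. It had 79, 99.6 and 133 CPM at P5, 172, 233 and 313 CPM at P15 and 146, 300.1 and 371 CPM in adults, with no overlap of P15 and P5. It changed by 1.18 ± 0.10, adjusted p = 1.61e-15 at P15 and by 0.32 ± 0.09, adjusted p = 0.00152 in adults over P15 (GC-adjusted 0.81 and 0.51). The adult change was 0.19 (adjusted p = 0.0409) without the 4 libraries that stood apart. Slc44a1, a more widely expressed choline carrier gene, rose by 1.04 ± 0.07, adjusted p = 5.72e-20 at P15 and changed by -0.50 ± 0.06, adjusted p = 1.47e-10 in adults. Its transcript is GC-poor (41.7%). GC-adjusted sizes are not given for it, but the 10 higher calls of this group at P15 and its 7 lower calls in adults were kept. The myelin markers of the same libraries rose and fell at the same steps, and a link was not tested. The thiamine carrier gene Slc19a2 rose over both steps (0.95 ± 0.05, adjusted p = 2.64e-22; 0.29 ± 0.05, adjusted p = 2.31e-07; GC-adjusted 0.92 and 0.31). Slc27a3, of the fatty acid carrier family, fell to 4.20, 6.76 and 9.89 CPM at P15, against 19.1, 22.2 and 25.3 CPM at P5 (-1.74 ± 0.08, adjusted p = 1.04e-24; GC-adjusted -0.97, with 60.9% GC). Of the 4 members that encode no transporter, 1 rose (Slc4a1ap), 1 fell (Slc2a4rg-ps) at P15 and 0 were called in adults over P15. GC-adjusted, the scaffold genes Slc9a3r1 and Slc9a3r2 were also called higher at P15 (0.51 and 0.74) and lower in adults (-0.17 and -0.35).

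Genes that work beside the carriers moved in the same libraries. Of 9 subunits of the sodium and calcium pumps that hold up the ion gradients, 2 rose and 6 fell at P15 with a median of -0.68 (GC-adjusted 3 and 5, -0.55), and 8 rose and 0 fell in adults over P15 with a median of 0.67 (GC-adjusted 9 and 0, 0.69). Of 10 subunits of the proton pump that drives vesicular loading, 7 rose and 2 fell at P15 (GC-adjusted 7 and 1) and 2 rose and 6 fell in adults (GC-adjusted 2 and 4). Carrier partners and the mitochondrial pyruvate carrier rose at P15, 5 of 5 (GC-adjusted 4 of 5), among them Mpc1 with 1.38 ± 0.12, and 3 of 5 fell in adults (GC-adjusted 4, with 1 rising). Of 7 enzymes of transmitter synthesis, 7 rose at P15 (GC-adjusted 6 and 1 lower): Tph2, for serotonin, by 2.401 ± 0.08, Glul, for glutamine in astrocytes, by 1.79 ± 0.05 and Gad1, for GABA, by 0.26 ± 0.06.

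Allelic counts within each hybrid gave the strain effect, a log2 ratio (CAST to C57 counts, with the crosses weighted equally) that is positive where the CAST allele gave more counts. Both alleles are counted in the same library, so the GC trend was not adjusted here. At P5, 57 members had more counts from CAST and 63 from C57, 56.9% of members beside 58.4% of all genes tested (31.5% from CAST, 26.9% from C57). At P15 the numbers were 58 and 67 (59.2% beside 58.4%, by direction 31.1% and 27.3%), and in adults 71 and 73 (68.2% beside 67.8%, by direction 35.9% and 31.9%). The median size among called members was 0.24, 0.24 and 0.21 on the log2 scale, and the median over all genes tested, signed, was 0.01 at each age. At all 3 ages in the same direction 34 members were called higher from CAST and 43 higher from C57, 36.5% of members beside 39.1% of genes tested at the 3 ages, and 31 members were called at no age. How reads were assigned to an allele is not stated, and a difference between the alleles in how well reads map was not tested.

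The 6 members with the largest lasting excess from CAST were led by Slc5a3, whose CAST share of allelic counts was 61.7, 65 and 67.2% at P5, 57.5, 61.2 and 65% at P15 and 55.6, 57.8 and 60.9% in adults (lowest, median and highest library). All 14, 14 and 18 libraries had more counts from CAST. Its strain effect was 0.87, 0.65 and 0.45 at P5, P15 and in adults, with adjusted p of 1.06e-30, 8.22e-25 and 1.49e-22. It shares 159 of its 10913 exon bases with Mrps6 on the same strand. The others were Slc25a30 (0.48, 0.57 and 0.39) and the choline carrier Slc44a1 (0.41, 0.57 and 0.36). They also included the monoamine carrier Slc22a3 (0.39, 0.42 and 0.44), the neutral amino acid carrier Slc43a2 (0.23, 0.28 and 0.66) and the potassium chloride cotransporter Slc12a4 (0.28, 0.38 and 0.41). For Slc22a3 and Slc44a1 each library had more counts from CAST, and for Slc43a2, Slc25a30 and Slc12a4 up to 1 library at an age had more from C57.

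From C57 the excess was largest for Slc5a5 and Slc17a8, and their promoters are shown because these are the largest strain effects among the members named. The windows are chr8:70892708-70893007 and chr10:89621200-89621499 (GRCm38.p6, minus strand, RefSeq), with matches to the same 4 motifs in capitals.
Slc5a5: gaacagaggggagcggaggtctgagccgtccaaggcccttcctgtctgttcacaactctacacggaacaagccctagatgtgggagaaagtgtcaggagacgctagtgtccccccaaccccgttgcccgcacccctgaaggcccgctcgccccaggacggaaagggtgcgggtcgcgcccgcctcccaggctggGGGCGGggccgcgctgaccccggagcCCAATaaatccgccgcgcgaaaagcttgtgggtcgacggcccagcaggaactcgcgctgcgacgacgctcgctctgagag
Slc17a8: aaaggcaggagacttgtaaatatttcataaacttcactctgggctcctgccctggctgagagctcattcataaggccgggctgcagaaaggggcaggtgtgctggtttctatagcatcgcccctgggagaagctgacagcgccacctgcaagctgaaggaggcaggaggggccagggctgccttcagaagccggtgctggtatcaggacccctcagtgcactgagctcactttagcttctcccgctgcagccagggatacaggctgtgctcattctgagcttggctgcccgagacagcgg
The Slc5a5 window holds 29 CG pairs, 67.0% GC and 1 match each to the GC box and to CCAAT. The median number of CG pairs was 19 in member promoters and 7 in all promoters, the same unlike sets as above. The Slc17a8 window, 1 of 2 listed for the gene, holds 7 CG pairs, 58% GC and none of the 4 motifs.

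The CAST share of Slc5a5 was 15.3, 22.1 and 25.8% at P5, 19.4, 23.6 and 27.6% at P15 and 28.1, 31.2 and 34.1% in adults, below 50% in all 46 libraries. Its strain effect was -1.83, -1.67 and -1.13 at the 3 ages. For Slc17a8 the CAST share was 37.5, 40.8 and 42.2% at P5, 25.4, 31.5 and 34.1% at P15 and 31.8, 34.9 and 37.1% in adults. P5 lay above both later ages, no library exceeded 50%, and the effect was -0.56, -1.18 and -0.90. Slc9a3r1, the scaffold gene, held a near constant share of 33, 38 and 42.5% at P5, 31.3, 38.8 and 48.8% at P15 and 32.3, 38.3 and 42.8% in adults (-0.69, -0.61 and -0.67). The glucose carrier Slc2a3 (-0.52, -0.38 and -0.39), the lysosomal carrier Slc15a4 (-0.35, -0.50 and -0.51) and the calcium exchanger Slc24a3 (-0.44, -0.39 and -0.36) completed the 6, with at most 2 libraries at an age having more counts from CAST. For Slc1a2 the effect was -0.16, 0.03 and 0.11 and for Slc12a5 it was 0.00, -0.06 and -0.14.

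**Figure D3:**
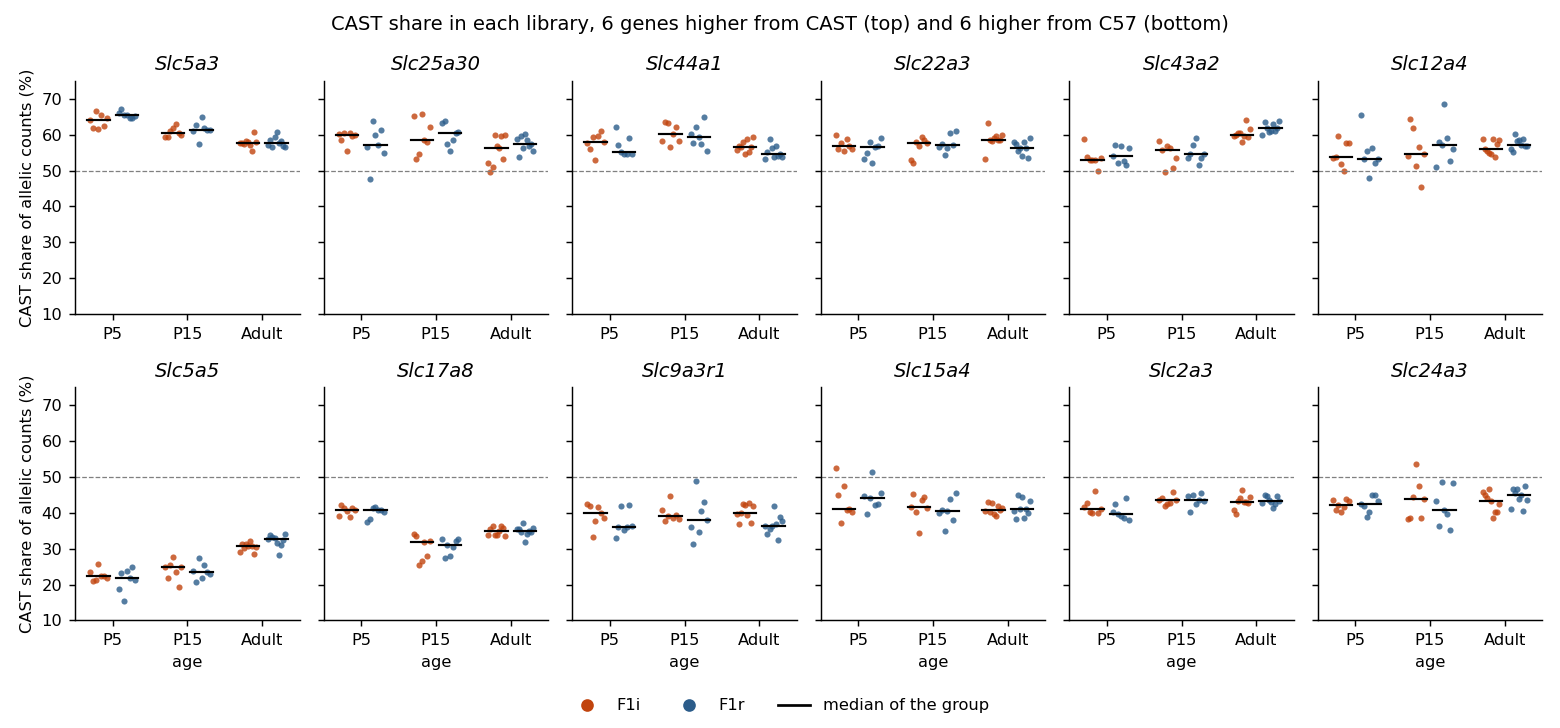
The CAST share of allelic counts in percent (y) at P5, P15 and in adults (x) for the 6 members with the largest lasting effect in each direction, 1 point for each library, F1i left and F1r right within an age, bars at the group median and a dashed line at 50%. The CAST share of Slc5a3 fell with age toward the line, that of Slc5a5 rose toward it, and that of Slc17a8 was lowest at P15.

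The strain effect itself changed with age for 48 members at P15 over P5, 22 upward and 26 downward (22.7% beside 19.7% of all genes, by direction 9.56% and 10.2%). In adults over P15 it changed for 43, 20 and 23 (20.4% beside 16.1%, by direction 7.75% and 8.32%). With each allele column scaled by its own TMM factor the split was 18 and 38 for the earlier step and 28 and 19 for the later one, so the balance of directions depends on the scaling. Slc17a8 had the largest shift at P15 (-0.62 ± 0.05, adjusted p = 4.89e-18) and moved back in part in adults (0.28 ± 0.04, adjusted p = 1.46e-07). Its total level did not pass the test at either step without the GC adjustment, and was called lower at P15 and higher in adults with it. For Slc5a5 the shift came in adults (0.55 ± 0.05, adjusted p = 1.2e-12), when the CAST share had a median of 31.2%, against 23.6% at P15. Slc7a4 had an excess from CAST at P15, against near balance at P5 (0.49 ± 0.07, adjusted p = 2.79e-07; CAST share 46.3, 52 and 54.7% at P5, 49.2, 62.3 and 65% at P15 and 52.1, 55.9 and 58.8% in adults). For Slc7a1, whose total fell at P15, the excess from C57 was larger at P15 than at P5 (-0.32 ± 0.04, adjusted p = 1.77e-10; CAST share 45.9, 48.9 and 50.5% at P5, 38.4, 43.7 and 46.3% at P15 and 40.2, 43.3 and 45.6% in adults). For Slc1a2 the effect was CAST-directed in adults in 18 of 18 libraries and C57-directed at P5 in 14 of 14, with median CAST shares of 51.8% in adults and 47.3% at P5. The shift was 0.19 ± 0.01, adjusted p = 1.67e-18, at P15 minus P5, and 0.08 ± 0.01, adjusted p = 1.52e-06, at adult minus P15.

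Other upward shifts at P15 were those of the neutral amino acid carrier Slc1a4 (0.30 ± 0.02, adjusted p = 1.05e-16) and the folate carrier Slc19a1 (0.35 ± 0.10, adjusted p = 0.00832). Smaller ones were those of Slc29a3 (0.25 ± 0.07, adjusted p = 0.0054) and the sugar carrier Slc50a1 (0.23 ± 0.08, adjusted p = 0.0337). Downward shifts at P15 were those of the thiamine carrier Slc19a2 (-0.34 ± 0.06, adjusted p = 2.77e-05), the proton myo-inositol carrier Slc2a13 (-0.31 ± 0.04, adjusted p = 6.61e-08) and Slc35a4 (-0.31 ± 0.10, adjusted p = 0.0203). In adults over P15 the effect moved upward for Slc43a2 (0.38 ± 0.04, adjusted p = 8.65e-10), Slc4a7 (0.34 ± 0.06, adjusted p = 2.99e-05) and Slc46a3 (0.33 ± 0.09, adjusted p = 0.00421). It moved downward for Slc25a13 (-0.42 ± 0.10, adjusted p = 0.00238), Slc25a29 (-0.28 ± 0.09, adjusted p = 0.0175) and the dicarboxylate carrier Slc13a3 (-0.25 ± 0.06, adjusted p = 0.000583), and likewise for the calcium exchanger Slc24a4 (-0.24 ± 0.09, adjusted p = 0.0463) and Slc7a4 (-0.24 ± 0.07, adjusted p = 0.00693). The call of Slc50a1 was lost without the libraries that stood apart (adjusted p = 0.0639) and with allele columns scaled by TMM (0.0668). That of Slc24a4 was lost with limma (adjusted p = 0.0517) and with the same scaling (0.0797).

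**Figure D4:**
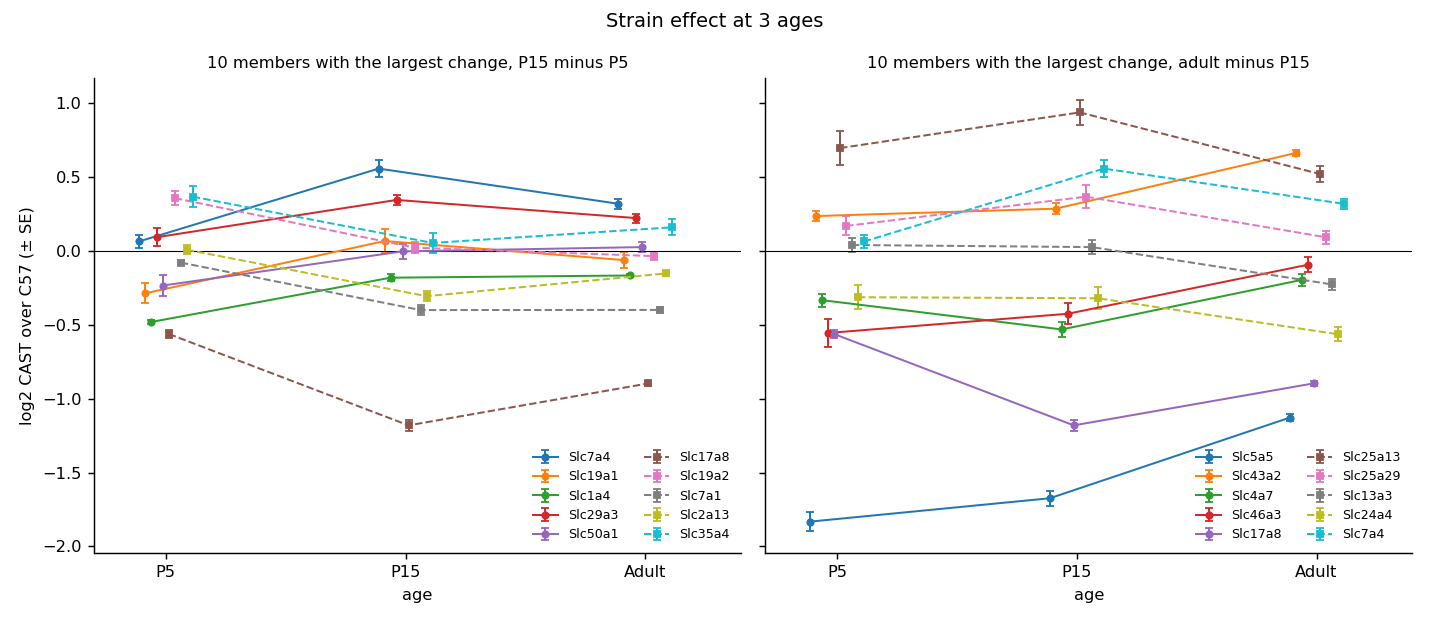
The strain effect, log2 CAST over C57 with its SE (y), at P5, P15 and in adults (x) for the 10 members with the largest change at P15 over P5 (left) and in adults over P15 (right), solid lines for upward and dashed lines for downward changes. Slc17a8 stands at -0.56 at P5, -1.18 at P15 and -0.90 in adults, and Slc5a5 lies lowest in the right panel at each age.

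A parental effect, taken as 0.5 times the difference of the strain effects (F1i minus F1r), was called for few members. At P5, 0 were higher and 1 lower, beside 2.71% of all genes (2.34% higher, 0.365% lower). At P15 it was 0, beside 0.742% (0.458% higher, 0.283% lower), and in adults 1 in each direction, beside 2.71% (2.26% higher, 0.45% lower). Among autosomal genes, as the members are, 0.857%, 0.638% and 0.922% were called. At P15, 4 members had an unadjusted p under 0.05, and limma called 0. Slc25a29 was the member called at P5 and in adults. Its CAST share was 44, 45.8 and 48.5% in F1i, against 55.4, 60.2 and 65.6% in F1r at P5, with no overlap. At P15 it was 45.9, 50.4 and 58.8% in F1i and 52, 59.7 and 68.1% in F1r, and in adults 42.9, 48.1 and 53.5% in F1i and 49.1, 55.6 and 60.4% in F1r, both with overlap. The parental effect was -0.40 ± 0.06, adjusted p = 1.06e-05 at P5, -0.25 ± 0.08, adjusted p = 0.265 at P15 and -0.23 ± 0.04, adjusted p = 0.0011 in adults. Its total level did not pass the test between crosses at any age (0.06, 0.21 and -0.09).

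Slc25a29 lies on chromosome 12 in gene order 5 genes before Dlk1, a paternally expressed gene, and 6 before Meg3, a maternally expressed one, of a known imprinted cluster. In the same libraries Dlk1 had parental effects of -4.58, -5.38 and -5.85 at the 3 ages and Meg3 of 8.24, 7.42 and 8.11, so the sign at Slc25a29 was that of Dlk1. Wars, Wdr25 and Begain, which lie between them, had effects of the same sign: Wars -0.43, -0.34 and -0.30, Wdr25 -0.93, -0.49 and -0.54, and Begain -0.85, -1.78 and -1.41, each called at all 3 ages. Slc25a47, between Slc25a29 and Wars, was tested in adults alone and not called (-0.21). On the other side Yy1, the nearest gene, was not called at any age (-0.09, -0.07 and -0.01), and the next ones, Degs2 and Evl, were called in adults alone (-0.22 and -0.10). The other member called in adults was Slc7a1, with 0.07 ± 0.02, adjusted p = 0.0308. Its adult CAST share was 42.8, 44.3 and 45.6% in F1i and 40.2, 42 and 44% in F1r, overlapping ranges, and the call was lost with allele columns scaled by TMM (adjusted p = 0.0601) and with adult libraries summed over their first label number (adjusted p = 0.107).

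Few members were called between crosses in total level. At P5, 0 members were higher and 2 lower in F1i than in F1r, beside 1.17% of all genes (0.495% higher, 0.673% lower), while 28 had an unadjusted p under 0.05. Slc5a7 had 79, 92 and 104 CPM in F1i, against 97.7, 108 and 133 CPM in F1r, with overlap of the ranges and a difference of -0.35 ± 0.06, adjusted p = 5.2e-05. Slc10a4 had 53.1, 55.7 and 69.1 CPM in F1i, against 55.4, 65.3 and 76 CPM in F1r, and a difference of -0.21 ± 0.06, adjusted p = 0.0463, which DESeq2 did not call (adjusted p = 0.0996). In the same P5 libraries 6 of 6 myelin markers were lower in F1i, with a median of -0.50 (summed CPM 1254 to 1545 in F1i and 1808 to 2335 in F1r), and 3 of 4 serotonin neuron markers were lower, with a median of -0.24. Of the immature neuron markers 2 of 2 were higher in F1i, with a median of 0.21 (summed CPM 231.7 to 263.5 in F1i and 208.8 to 220.6 in F1r). The part of these lists in the differences of the members was not tested. At P15 and in adults 0 members were called, beside 0.0467% of all genes at P15 (0.0389% higher, 0.00778% lower) and 0.111% in adults (0.0962% higher, 0.0148% lower). At an unadjusted p under 0.05 these were 6 members at P15 and 12 in adults. DESeq2 called 0 at P15 and 1 in adults, and adult libraries summed over their first label number gave 6. The difference of Slc5a7 was 0.12 ± 0.12 at P15 and -0.21 ± 0.14 in adults.

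**Figure D5:**
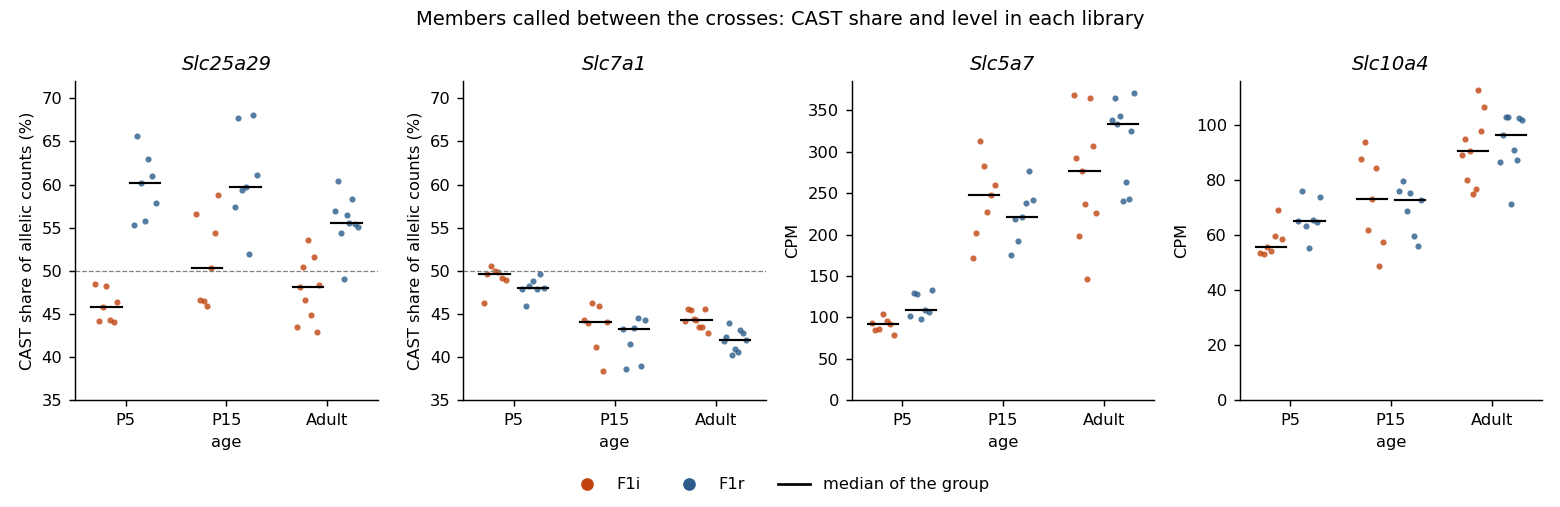
The CAST share of allelic counts in percent for Slc25a29 and Slc7a1 and CPM for Slc5a7 and Slc10a4 (y) at P5, P15 and in adults (x), 1 point for each library, F1i left and F1r right within an age, bars at the group median. The shares of Slc25a29 were lower in F1i than in F1r, without overlap at P5, and the F1i level of Slc5a7 was lower at P5.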

How the data were processed

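RNA of the dorsal raphe nucleus of female F1 hybrids was sequenced in 46 TruSeq libraries with 50 bp single-end reads, per the labels' protocols. Novoalign and the mm9 build are named in the submitters' processing notes. The authors deposited read counts for each of 15499 genes, split by allele, in 3 tables of whole numbers. Allele assignment, strand and the handling of reads that match several places are not given in the sources used here. All 92 columns were matched to samples by the labels.

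Counts of both alleles were summed for age and cross comparisons and tested with edgeR 4.0.16 (R 4.3.3): quasi-likelihood test, TMM scaling, filterByExpr, Benjamini-Hochberg adjustment over all genes and a threshold of 0.05. The age fit used all 46 libraries in 6 groups, and each cross fit the libraries of 1 age. All 211 members passed the filter in the age fit. Allele models had 1 column for each library and allele, a term for each library, the total of both alleles as library size, and genes whose alleles together averaged at least 20 counts. The scripts were tested on simulated data. Alternatives were DESeq2 1.42.0, limma 3.58.1 on log2 allele ratios, and other scalings and filters. Further ones were the replicate number as a block (for adults the second label number) and adult libraries summed over their first label number. The contrast of adults with P5, removal of each library's GC trend (lowess on the longest GENCODE transcript) and leaving out 4 libraries were chosen after the data had been seen. Libraries held 3692778 to 13085952 counts. The 91 genes with no count were not tested.

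Members, lists and tests were chosen with earlier results of these data known. Named members are 20 of 25 genes of transmitter, chloride, glucose and related transport that are members, whatever their test gave (Slc1a1, Slc18a2 and Slc18a3 were not analysed here). To these were added the 8 largest called age changes in each direction and step at a mean of 5 CPM or more. For strain the 6 largest lasting effects in each direction and the 5 largest changes in each direction and step were named, at a mean count of 100 or more, and for crosses each member called. Other members named in the report were chosen after their values were seen. Promoters come from RefSeq (GRCm38.p6) by symbol, while the files use mm9, so no coordinate was carried between builds. Exon overlaps are from the GENCODE annotation. Values of a few genes of the lists are not reported here.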

Additional observations from a re-analysis of the deposited data

Results flagged for a closer look

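Single libraries lay far from the rest of their group for 19 of the 402 sets of libraries checked over 67 named members; such a gap is expected by chance in about 1 in 20 groups. Adult F1i library 1_1, which also had the lowest GC-rich to GC-poor level of the adults, was the highest of its group for Slc39a12 (271.6 CPM), Slc4a7 (46.75 CPM), Slc7a11 (93.11 CPM) and Slco1a4 (72.56 CPM). In P15 libraries, F1i library 1 was lowest for Slco1c1 (124.7 CPM), F1r library 3 was lowest for Slc39a12 (221.6 CPM) and highest for Slc6a5 (99.29 CPM), and F1r library 4 was lowest for Slc25a13 (13.21 CPM). In P5 F1r libraries, library 2 was highest for Slc29a4 (147 CPM) and Slc32a1 (129.8 CPM) and lowest for Slc6a5 (48.36 CPM), and library 7 was highest for Slc2a1 (46.19 CPM). In P5 F1i libraries, library 6 was highest for Slc10a4 (69.07 CPM), library 3 for Slc27a3 (25.33 CPM) and library 5 for Slc32a1 (98.64 CPM), while library 2 was lowest for Slc40a1 (31.55 CPM) and library 4 for Slco1a4 (16.87 CPM). In adult F1r libraries, library 7_3 was highest for Slc24a4 (28.91 CPM) and library 6_2 for Slc40a1 (12.86 CPM).

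The CAST over C57 effect differed between ages for the named members that follow, by the test of the difference itself. At P15 minus P5 (log2) it moved by 0.49 for Slc7a4, 0.354 for Slc19a1, 0.30 for Slc1a4, 0.252 for Slc29a3 and 0.232 for Slc50a1, and by -0.617 for Slc17a8, -0.335 for Slc19a2, -0.320 for Slc7a1, -0.314 for Slc2a13 and -0.313 for Slc35a4. At adult minus P15 it moved by 0.546 for Slc5a5, 0.375 for Slc43a2, 0.335 for Slc4a7, 0.330 for Slc46a3 and 0.284 for Slc17a8, and by -0.417 for Slc25a13, -0.275 for Slc25a29, -0.252 for Slc13a3, -0.242 for Slc24a4 and -0.239 for Slc7a4.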

How the results depend on the processing

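Over 943 values of named members under the alternatives, 903 kept their side of the threshold, 17 gained a call, 22 lost one and 1 called value changed sign without a call: the P15 over P5 change of Slc7a11 was -0.019 with the GC trend of each library removed. In all 15 values had the opposite sign, 11 of them called in neither fit and 3 called in the alternative alone. These 3 were Slc17a6 (-0.22) and Slc6a9 (0.44) at P15 over P5 with the GC trend removed, and Slc17a6 (-0.14) in adults over P15 without the 4 libraries that stood apart. Counts of called members moved by over 1.5 times in few settings. For the cross at P5 (2 members) DESeq2 called 1, and in adults (0 members) it called 1 and adult libraries summed over their first label number gave 6. The adult parental effect (2 members) was called for 1 with allele columns scaled by TMM and for 1 with the summed libraries. The cause of these shifts was not tested. Libraries of the crosses with the same replicate number correlated in their deviations from -0.085 to 0.165 at P5 and from -0.463 to 0.785 at P15. For adults the second label number was used. Adult libraries sharing number 1, 2 or 3 had mean correlations of 0.415, 0.202 and 0.285, against -0.264, -0.057 and -0.102 with other numbers. Single pairs went down to -0.505. Libraries numbered 1, 2 and 3 held 7838173 to 13037867, 4912934 to 11081451 and 10285890 to 13085952 counts. Their level of the GC-richest relative to the poorest class was -0.82 to 0.07, -0.11 to 0.24 and -0.08 to 0.23. As not every pair was correlated and the labels tie the number to nothing shared, it was not taken as a pairing. With it as a block the cross at P5 gave 4 members and the adult minus P15 strain change 25 (10 and 15) in place of 43. The age comparisons gave 179, 153 and 167. Among the named adult minus P15 strain changes, the block lost the calls of Slc46a3 (0.242, adjusted p = 0.194) and Slc7a4 (-0.2, adjusted p = 0.119). Those of Slc25a29 (-0.265, adjusted p = 0.102) and Slc24a4 (-0.181, adjusted p = 0.364) were lost as well. How adults with a shared first number are related is not stated.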
